A study of Homo sapiens with 35 samples.

Results

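The 74 genes described here are nuclear genes that encode subunits of the oxidative phosphorylation complexes, measured in HEK293T cells, an immortalised line from human embryonic kidney. They were chosen by symbol, from a table of 60665 genes, by a rule that uses no measured value, although the set was chosen with earlier results of these data known: 37 genes of complex I (symbols starting NDUFA, NDUFB, NDUFC, NDUFS or NDUFV), 4 of complex II (SDHA to SDHD), 8 of complex III (UQCR genes), 10 of complex IV (COX genes) and 15 of complex V, the ATP synthase (ATP5 genes). All 74 passed the filter on low counts, as did 19275 genes in all. The study sequenced total RNA in 35 libraries after depletion of INTS13, a subunit of the Integrator complex, or of a protein studied as its partner, by transfection of a siPOOL (a mixture of many siRNAs to the same target) at 5 nM for 72 h. The question of the comparisons was how far INTS13 and the partners act on the same genes, and whether INTS13 and HDGF bear on the response to the loss of glucose.

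Libraries fell into 3 sets, and every library, controls included, had received a siPOOL. In the first set, 3 control libraries (1a, 1b and 2) stood beside 2 libraries each of cells depleted of TSPYL2, ZEB1, ZNF608, ZNF609 or ZNF687. In the second set, 4 control libraries (3a, 3b, 4a and 4b) stood beside 2 each of cells depleted of INTS13, HDGF or ZNF655, and beside cells kept without glucose for 24 h: 4 control, 2 INTS13-depleted and 2 HDGF-depleted libraries. In the third set, 2 ZMYND8-depleted libraries had 2 controls of their own. No label named the control or the set of the ZNF655 libraries. They were placed in the second set here, and the controls of that set were used. The depletions were partial: each target was left at 8.36% to 56.1% of its control level, and no depleted library reached the range of its controls.

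Oxidative phosphorylation is the route by which mitochondria turn the energy of nutrients into ATP. Complexes I and II take electrons from NADH and succinate, complex III passes them to cytochrome c, complex IV hands them to oxygen, and the proton gradient built on the way drives the ATP synthase. Most subunits are encoded in the nucleus, and a core set is encoded by mitochondrial DNA. Nuclear respiratory factor 1 (NRF1), GABPA (an ETS family factor) and YY1 are known to bind promoters of many of the nuclear genes. The mitochondrially encoded subunits could not be set beside the nuclear ones, since the 37 genes on the mitochondrial chromosome were at 0 in all libraries.

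The promoters are shown first, because the rule by symbol did not use them. Some motifs were more frequent there than in promoters of other genes, though no motif was common to all. RefSeq promoter windows (build GRCh38.p14, from 250 bases before to 50 after a gene's start) were found for 61 of the 74 genes, 73 windows in all. The NRF1 motif (GCGCA, any base, GCGC) was present, on either strand, in 15 of 73 windows (20.55%), against 9.145% of the 17146 windows of genes tested and 5.784% of 35116 windows in all. The ETS motif CCGGAAG was present in 21 windows (28.77%), against 15.54% and 10.26%. The YY1 motif AANATGGCG was present in 19 windows (26.03%), against 5.395% and 3.192%. Another motif searched, CCAAT, did not follow this order: 31.51% of the windows of the 74 genes held it, and 34.57% of those of tested genes. At least 1 of the first 3 motifs lay in 42 of 73 windows (57.53%), against 26.45% of windows of tested genes. These shares are descriptions of letters in a window, not of bound sites.

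The motifs were spread unevenly over the complexes. The YY1 motif was found in 11 of 31 matched complex I genes, and in 1 of 11 of complex V. The NRF1 motif was found in 4 of 7 matched genes of complex III and in 0 of 9 of complex IV, where 5 of 9 genes held the ETS motif. All 3 matched genes of complex II held at least 1 of the 3 motifs.

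The 120 bases before the start of 7 genes are printed below. Matches to the 3 motifs that lie wholly within these bases are in capitals. NDUFV1, UQCR11, NDUFA10 and ATP5F1A are shown because their calls, described below, were kept whichever library was left out. NDUFA10 lost its call in other alternative runs, as given below. ATP5F1C, COX5B and ATP5PF are shown as cases of an NRF1 match, an ETS match, and a YY1 match beside an ETS match. COX5B has another ETS match that begins at base -5 and runs past the printed bases, so it is not marked. They lie, in the same order, at chr11:67606816-67606935 (plus strand), chr19:1605463-1605582 (minus), chr2:240025343-240025462 (minus), chr18:46098297-46098416 (minus), chr10:7788057-7788176 (plus), chr2:97645942-97646061 (plus) and chr21:25735055-25735174 (minus).
NDUFV1: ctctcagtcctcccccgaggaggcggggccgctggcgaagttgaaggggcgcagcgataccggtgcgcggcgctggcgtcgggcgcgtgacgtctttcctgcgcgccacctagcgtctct
UQCR11: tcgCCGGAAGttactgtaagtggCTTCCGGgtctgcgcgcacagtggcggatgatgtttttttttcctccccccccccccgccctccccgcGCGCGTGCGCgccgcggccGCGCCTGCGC
NDUFA10: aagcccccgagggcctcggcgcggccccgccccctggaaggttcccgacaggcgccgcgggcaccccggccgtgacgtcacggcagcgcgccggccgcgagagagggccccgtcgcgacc
ATP5F1A: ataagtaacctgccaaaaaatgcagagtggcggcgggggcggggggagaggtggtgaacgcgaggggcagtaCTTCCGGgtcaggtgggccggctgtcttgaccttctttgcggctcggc
ATP5F1C: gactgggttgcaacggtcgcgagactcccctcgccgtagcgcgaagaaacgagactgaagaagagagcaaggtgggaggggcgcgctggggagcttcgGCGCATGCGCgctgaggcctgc
COX5B: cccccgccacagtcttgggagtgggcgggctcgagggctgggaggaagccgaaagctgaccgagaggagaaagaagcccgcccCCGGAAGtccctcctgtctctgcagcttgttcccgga
ATP5PF: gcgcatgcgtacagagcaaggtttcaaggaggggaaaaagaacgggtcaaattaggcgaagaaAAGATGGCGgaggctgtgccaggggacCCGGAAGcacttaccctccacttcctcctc
UQCR11 carries 2 NRF1 matches and 2 ETS matches within these bases. NDUFV1 and NDUFA10 carry none of the 3 motifs there, so the 4 genes whose calls were kept whichever library was left out do not share them.

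Per kilobase of exons, the genes of complex IV were the highest as a group and those of complex II the lowest. Levels are CPM (counts scaled to the size of the library) divided by exon length, over the 9 control libraries with glucose. The median level was 91.3 CPM per kb for complex IV, 67.9 for complex III, 47.4 for complex V, 30.3 for complex I and 24.1 for complex II. ATP5F1B, the catalytic beta subunit of the ATP synthase, had the highest level of all 74 genes, 552 ± 74.6 CPM per kb (SD, n = 9). NDUFA1 led complex I (449 ± 156), COX8A complex IV (371 ± 71.0), UQCRH complex III (267 ± 88.9) and SDHB, the iron-sulfur subunit of succinate dehydrogenase, complex II (65.2 ± 14.2). The lowest in complexes III, IV and V were UQCRB (19.0 ± 6.21), COX6C (54.6 ± 19.2) and ATP5MG (19.1 ± 5.58). The order depends on the length used. Per kilobase of 1 spliced transcript the median of complex V (133 CPM per kb) lay above that of complex III (129), the highest gene of complex I was NDUFS5, and the lowest of complexes II, III and IV were SDHC, UQCRFS1 and COX7B.

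**Figure D1:**
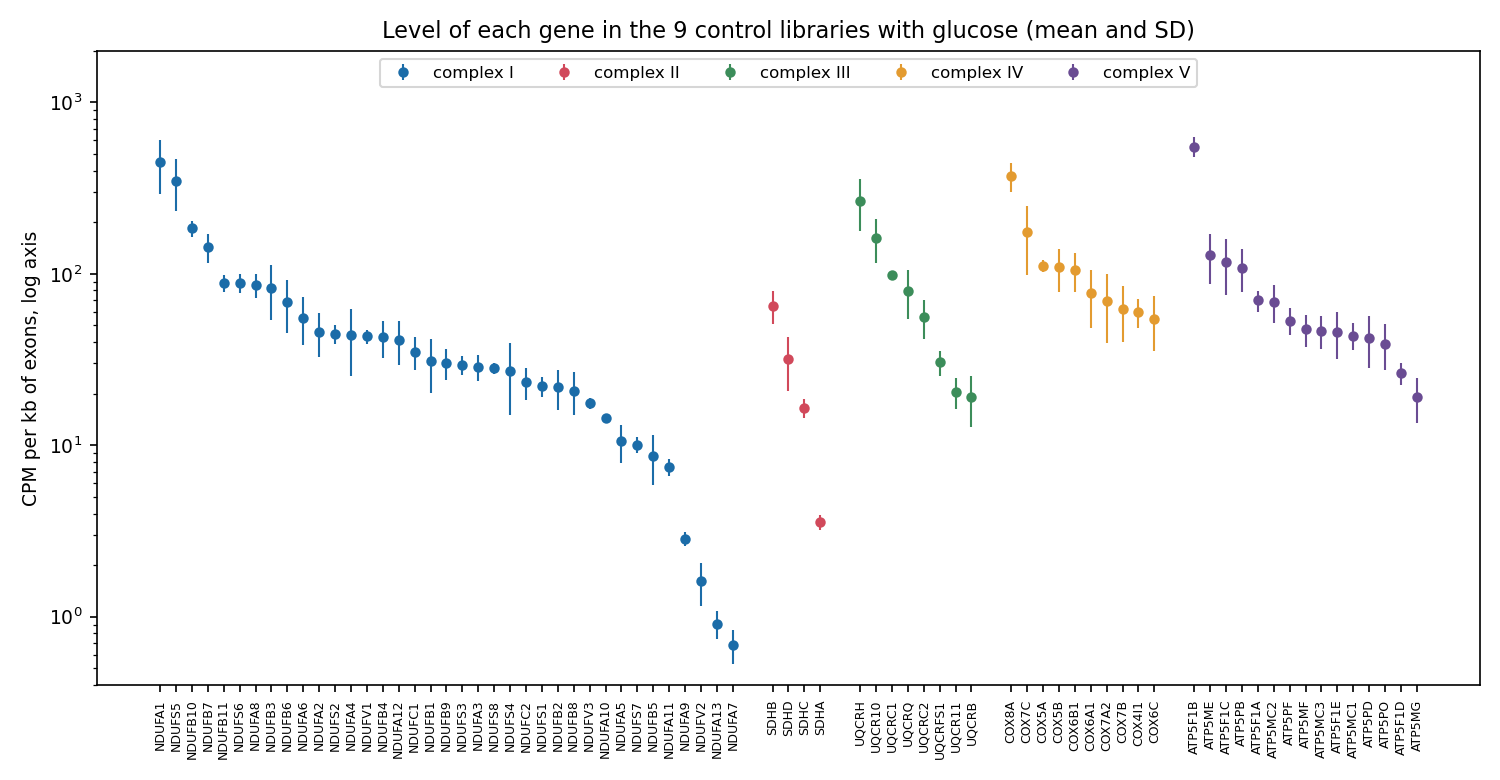
Mean level of each of the 74 genes in the 9 control libraries with glucose, in CPM per kilobase of exons on a log axis, with SD bars, ordered within each complex. SDHA and 4 genes of complex I lie at 3.59 or less, below all others.

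Of the 5 genes at the bottom of the scale, 4 overlap a neighbour or have a pseudogene with many counts beside their own, and their values are uncertain; how reads were divided was not tested. NDUFA7 (0.685 ± 0.153 CPM per kb) overlaps RPS28, a ribosomal protein gene, and an unnamed transcript, and NDUFA13 overlaps YJEFN3 and another unnamed transcript. SDHA, the catalytic subunit of succinate dehydrogenase (3.59 ± 0.360 CPM per kb), has 3 named pseudogenes whose counts came to 76.7% of its own. For NDUFV2, 1 pseudogene held 27.3%, and an antisense gene overlaps it. For NDUFA9 (2.84 ± 0.264 CPM per kb), the other gene there, the counts of overlapping genes came to 0.295% of its own and those of 1 pseudogene to 2.54%. In all, 22 of the 74 genes overlap a gene with at least 1% of their counts, and 45 have named pseudogenes, 159 together. Several of the 22 are named below for their changes. For these, the counts of overlapping genes came to 383% of their own for NDUFC1, 263% for NDUFB8 and 238% for NDUFS3. They came to 209% for NDUFA2, 115% for NDUFB2 and 73.3% for NDUFB3, among others. The strand setting of the counting is not given in the sources used here, so reads of a gene and of an antisense partner cannot be told apart.

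The summed share of the 74 genes varied most within the first set, whose range overlapped that of each other set. The ZMYND8-depleted libraries and their own controls all lay above every library of the second set. It ran from 0.992% to 1.96% of all counts over the 13 first-set libraries, from 0.944% to 1.07% over the 18 of the second set and from 1.10% to 1.17% over the 4 of the third. Within the first set the libraries numbered 1 in their descriptions were the high ones: control 1a held 1.54%, against 1.19% and 1.17% for controls 1b and 2, and ZEB1 library 1 held 1.96%, against 1.26% for library 2. The share of the cytosolic ribosomal protein genes moved with it, from 7.51% to 16.8% in the first set and from 5.57% to 8.39% in the second. Between number 1 and number 2 of the same group, the median log2 difference of the 74 genes was 0.05 (ZNF609) to 0.97 (ZEB1), that of ribosomal protein genes 0.18 to 1.27, that of all genes with under 2000 bases of exons 0.07 to 0.30, and that of longer genes -0.06 to 0.00. Of the 74 genes, 36.5% are under 2000 bases, against 23.4% of all genes tested. The part of transcript length or of library quality in the first-set results was not tested.

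**Figure D2:**
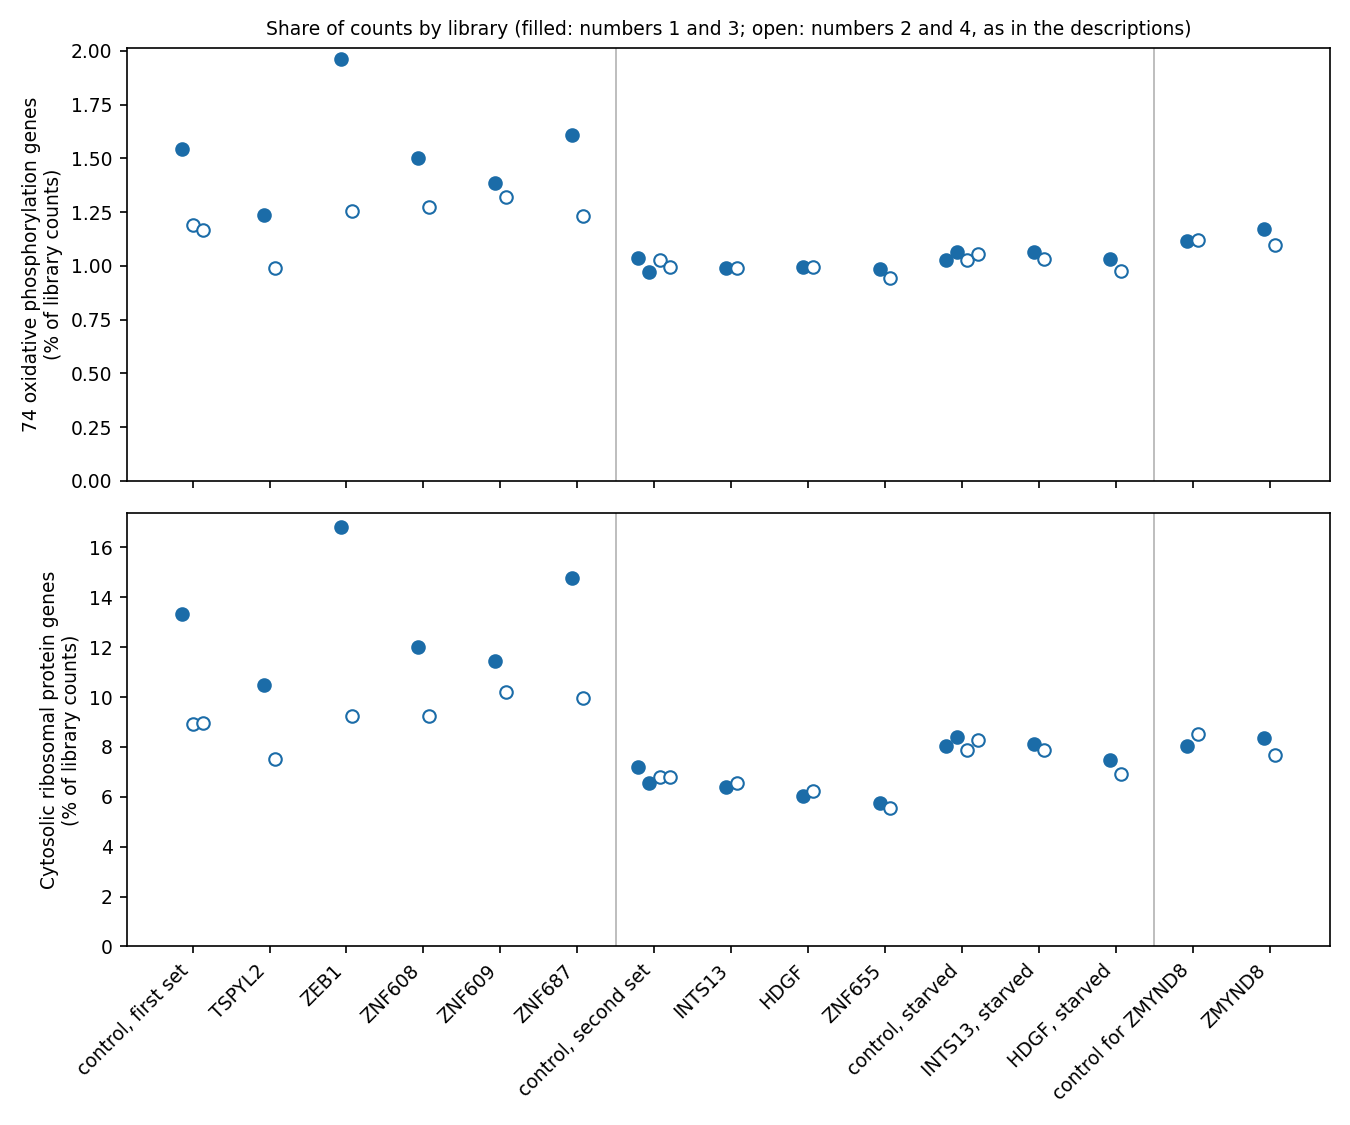
Share of each library's counts in the 74 genes (top) and in cytosolic ribosomal protein genes (bottom), in percent, by group, with 1 point per library. The first set spreads from 0.992% to 1.96% in the top panel and the second from 0.944% to 1.07%.

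Total counts ran from 16.8 M to 50.8 M per library (median 25.6 M). Of the marker genes of HEK293T cells, VIM was at 611 CPM, NEFL at 64.6, KRT18 at 54.5, NEFM at 22.4, KRT8 at 6.29 and PAX2 at 0.822, on average over the 9 controls. Of the 5 markers of other cell types, PTPRC, PECAM1, ALB and HBB had at most 7 counts in any library and COL1A1 was at 3.97 CPM. The labels do not state whether replicates came from separate cultures, and the p-values describe only the scatter of these libraries, which may be technical. Since RNA was measured in bulk, a smaller share of cells expressing a gene and less of its RNA per cell cannot be told apart.

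Each comparison below was fitted with edgeR's quasi-likelihood test over all 35 libraries, and a gene was called at a Benjamini-Hochberg adjusted p under 0.05 over all genes tested. This fit shares 1 estimate of the spread over the 3 sets, and the first set was the noisy one: the median coefficient of variation of the 74 genes between replicates was 0.227 in a fit of the first set alone, against 0.0532 in the second and 0.0473 in the third, and 0.150 in the fit of all libraries. A fit of 1 set alone is therefore given beside each comparison of the 74 genes. Genes outside the 74 (assembly factors, regulators and the other lists) are given by the fit of all libraries only. All p-values below are from edgeR unless another tool is named.

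Starvation of control cells moved single genes of the complexes up and down, with no common direction. NDUFV1, the flavoprotein of complex I that oxidizes NADH, rose. UQCR11, a small subunit of complex III, and NDUFB10, an accessory subunit of complex I, fell. These were 3 of 74 genes called, against 16.8% of all genes tested, and the median log2 change of the 74 was 0.02, against 0.01 for all genes.

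NDUFV1 (ENSG00000167792.13, hg38 chromosome 11, 67605653 to 67612554, plus strand) was at 210.8, 208, 194 and 195 CPM in the 4 control libraries and at 257.5, 266, 237 and 264 CPM in the 4 starved ones. The groups did not overlap, and the log2 fold change was 0.34 (SE 0.07, adjusted p = 0.000884). UQCR11 (ENSG00000127540.12, chromosome 19, 1597169 to 1605473, minus strand) was at 42.1, 37.9, 45.4 and 37.2 CPM with glucose and at 28.9, 32.6, 30.5 and 27.5 CPM without. All 4 starved libraries were below all 4 controls, with a log2 fold change of -0.44 (SE 0.11, adjusted p = 0.00797). NDUFB10 (ENSG00000140990.15, chromosome 16, 1959538 to 1961975, plus strand) was at 204, 170.6, 173.6 and 193 CPM with glucose and at 137.5, 149, 157 and 163 CPM without. Its groups did not overlap either, and its log2 fold change was -0.29 (SE 0.10, adjusted p = 0.0365). Leaving out each of the 8 libraries in turn kept the calls of NDUFV1 and UQCR11 in 8 of 8 fits and that of NDUFB10 in 3 of 8, with adjusted p up to 0.123 (it was lost without control 3a or 4b, or without starved control 3a, 3b or 4a).

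A fit of second-set libraries alone called 17 of the 74 genes, 9 up and 8 down, against 34.7% of all genes. By the naming rule applied to this fit, the largest rises were NDUFV1 (0.34), COX8A (0.32, adjusted p = 1.5e-05), ATP5MC2 (0.27, adjusted p = 0.000137), which encodes the membrane ring of the ATP synthase, and NDUFS7 (0.22, adjusted p = 0.0249). The largest falls were UQCR11 (-0.45), NDUFB10 (-0.29), ATP5F1D (-0.26, adjusted p = 0.00704), the delta subunit of the ATP synthase, and SDHD (-0.21, adjusted p = 0.0248), a membrane anchor of succinate dehydrogenase. By complex, 4 genes of complex I, 1 of III, 2 of IV and 2 of V rose, and 2 of complex I, 2 of II, 1 of III and 3 of V fell. Every change was under 0.5 on the log2 scale.

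Starvation of depleted cells gave no call in the fit of all libraries. In INTS13-depleted cells 0 of 74 genes passed, against 1.32% of all genes (unadjusted p under 0.05: 1 of 74, against 12.5%), and DESeq2's Wald test called 1, NDUFV1, against 2.79%. The second-set fit called 18, 17 of them up, against 12.7% of all genes. The largest rises were ATP5MC2 (0.42), COX6C (0.37), NDUFA1 (0.37) and NDUFB5 (0.35), and the 1 fall was UQCR11 (-0.29). In HDGF-depleted cells 0 of 74 passed, against 3.54% of all genes (unadjusted: 2, against 16%), and the Wald test called 0, against 5.22%. Fitted on the second set alone, 8 passed, against 17% of all genes: COX7A2 (0.32), COX6C (0.29), NDUFB5 (0.28) and NDUFV1 (0.23) up, and NDUFB10 (-0.38), UQCR11 (-0.31), UQCRFS1 (-0.29) and NDUFS3 (-0.19) down. NDUFV1 was at 195 and 183 CPM in the INTS13-depleted libraries and at 241 and 229 CPM in the starved ones, and at 184 and 198 CPM after HDGF depletion and at 238 and 207 CPM when these cells were starved. UQCR11 was at 36.4 and 36.1 CPM against 30.7 and 28.3 CPM, and at 37.7 and 38.1 CPM against 30.1 and 30.8 CPM. In each pair of groups the starved libraries lay on the same side as in control cells, without overlap.

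INTS13 depletion lowered ATP5F1D by the fit of all libraries, 1 of 74 genes against 12.8% of all genes tested. ATP5F1D (ENSG00000099624.8, chromosome 19, 1241746 to 1244825, plus strand) encodes the delta subunit in the stalk of the ATP synthase. It was at 53.9 and 46.8 CPM in the depleted libraries and at 73.7, 61.1, 65.9 and 60.5 CPM in the controls, which did not overlap (log2 fold change -0.38, SE 0.12, adjusted p = 0.0385). The call was kept in 2 of 6 fits with 1 library left out, and was lost without INTS13 replicate 3 or 4 or control 3a or 4a (adjusted p up to 0.332). It was also lost with no filter on low counts (adjusted p = 0.0514), a fit that called 3 of the 74, against 5.18% of all genes. Over the 74 genes the median log2 change was -0.09, with 56 lower and 18 higher, against 0.01 for all genes. Before scaling, they held 0.993% and 0.988% of all counts in the depleted libraries, inside the range of the controls (0.973% to 1.04%). The TMM factors that scale library size were 1.09 and 1.08, against 1.00 to 1.02 in the controls. The part of this scaling in the direction of the changes was not tested.

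The second-set fit called 26 genes after INTS13 depletion, 2 up and 24 down, against 30.1% of all genes. The falls took in 8 of the 15 genes of complex V, 8 of 37 of complex I, 4 of 10 of complex IV, 3 of 8 of complex III and 1 of 4 of complex II. By the naming rule the largest were ATP5MC2 (-0.48, SE 0.06, adjusted p = 2.2e-06), UQCRH, the hinge protein of complex III (-0.43, SE 0.05, adjusted p = 1.1e-06), ATP5F1D (-0.38) and ATP5MC1 (-0.36, SE 0.06, adjusted p = 5.1e-05). The 2 rises were NDUFC1 (0.39, SE 0.07, adjusted p = 0.000189) and NDUFA9 (0.30, SE 0.08, adjusted p = 0.00478). UQCRH was at 214 and 216 CPM after depletion, against 282, 283, 299 and 295 CPM in the controls. ATP5MC1, which like ATP5MC2 encodes the c subunit, was at 80.6 and 80.1 CPM, against 100.7, 98.5, 104 and 109 CPM. The depleted libraries were the lower ones for both genes.

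In starved cells INTS13 depletion called 0 of 74 genes, against 3.86% of all genes (unadjusted: 3, against 15.9%; Wald test 0, against 5.39%). In the second set alone 14 were called, 8 up and 6 down, against 16.3% of all genes. The largest falls were ATP5MC2 (-0.33), NDUFS7 (-0.30), NDUFS8 (-0.28) and ATP5MC1 (-0.20), and the largest rises NDUFC1 (0.37), NDUFB8 (0.37), NDUFA9 (0.32) and NDUFA5 (0.29). NDUFC1 and NDUFB8 overlap genes whose counts came to 383% and 263% of their own. The test of the difference between INTS13 depletion with and without glucose called 0 of 74 genes, against 0.0156% of all genes (unadjusted: 0, against 5.72%; Wald test 0, against 0.239%). In the second-set fit 2 of 74 passed, against 1.64% of all genes. They were NDUFB3 (0.35, SE 0.09, adjusted p = 0.0408) and UQCRH (0.34, SE 0.07, adjusted p = 0.0189). With glucose the depleted libraries were below the controls for both genes; without it they stayed below for UQCRH, and for NDUFB3 1 of 2 was above all controls. UQCRH was at 258.5 and 259 CPM in the starved depleted libraries and at 277, 294, 269 and 274 CPM in the starved controls. NDUFB3 was at 46.4 and 44.6 CPM after depletion against 55.2, 54.2, 55.7 and 57.4 CPM in the controls, and at 57.1 and 49.2 CPM against 52.0, 53.6, 48.5 and 50.6 CPM when starved.

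HDGF depletion called 0 of 74 genes, against 4.49% of all genes (unadjusted: 1, against 16.1%; Wald test 0, against 5.96%). Their median log2 change was -0.06, against -0.00 for all genes. The second-set fit called 9, against 16% of all genes. The largest falls were NDUFS4, an accessory subunit of complex I (-0.39, SE 0.09, adjusted p = 0.00604), NDUFB6 (-0.27), COX7A2 (-0.26) and NDUFB5 (-0.25). The 2 rises were UQCRFS1, the Rieske iron-sulfur protein of complex III (0.28, SE 0.06, adjusted p = 0.00115), and NDUFA6 (0.20). In starved cells 0 of 74 were called, against 0.659% of all genes (unadjusted: 1, against 11%; Wald test 0, against 1.83%), and 2 in the second-set fit, against 7.82%: COX4I1 (-0.21) and UQCRC2 (-0.18). The difference between HDGF depletion with and without glucose called 0 of 74 in the fit of all libraries, against 0% of all genes (unadjusted: 0, against 4.72%; Wald test 0, against 0.0363%). The second-set fit called 0 as well, against 0.22% (unadjusted: 2, against 12.2%).

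**Figure D3:**
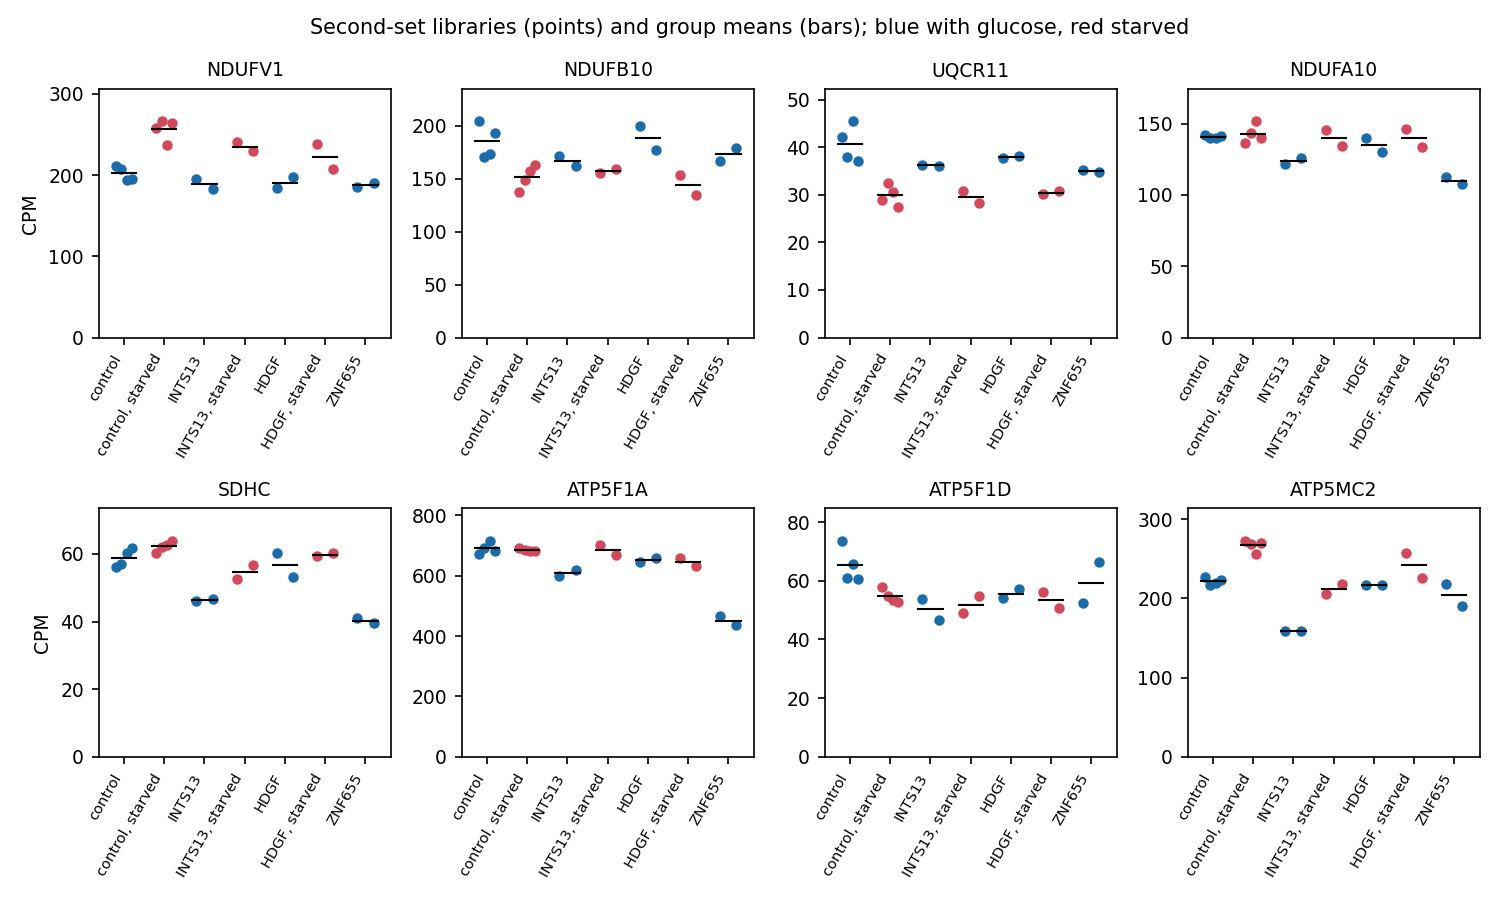
CPM of 8 genes in each second-set library (points) with the group mean (bar), blue with glucose and red without. NDUFV1 rises and UQCR11 and NDUFB10 fall in the starved control libraries, ATP5F1A, SDHC and NDUFA10 are lowest in the ZNF655 libraries, and ATP5MC2 (shown because it was called in the second-set fit) is lowest in the INTS13 libraries with glucose.

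ZNF655 depletion lowered 3 of 74 genes, against 11.5% of all genes tested. They were ATP5F1A, the alpha subunit of the ATP synthase head, SDHC, a membrane anchor of complex II, and NDUFA10, an accessory subunit of complex I. Of the 74 genes 68 were lower and 6 higher, with a median log2 change of -0.15, against 0.02 for all genes. The median of complex II was -0.36, of complex V -0.21, of complex IV -0.17, of complex III -0.14 and of complex I -0.12. Before scaling, the 74 genes held 0.986% and 0.944% of all counts in the depleted libraries, against 0.973% to 1.04% in the controls. The TMM factors that scale library size were 1.11 and 1.10, against 1.00 to 1.02, and a larger factor lowers every CPM of a library. The part of this scaling in the direction of the changes was not tested.

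ATP5F1A (ENSG00000152234.16, chromosome 18, 46080248 to 46104334, minus strand) was at 466 and 436 CPM in the depleted libraries and at 670.4, 692.5, 716 and 682 CPM in the controls. Both depleted libraries were below all other second-set libraries, and the log2 fold change was -0.61 (SE 0.11, adjusted p = 0.000401). SDHC (ENSG00000143252.15, chromosome 1, 161314381 to 161371964, plus strand) was at 40.9 and 39.7 CPM, against 56.2, 56.9, 60.2 and 61.9 CPM, with no overlap (log2 fold change -0.54, SE 0.16, adjusted p = 0.0256). NDUFA10 (ENSG00000130414.12, chromosome 2, 239892450 to 240025345, minus strand) was at 112 and 108 CPM, against 142, 139.8, 140.1 and 141 CPM, also with no overlap (log2 fold change -0.35, SE 0.08, adjusted p = 0.00259). The calls of ATP5F1A and NDUFA10 were kept in 6 of 6 fits with 1 library left out. That of SDHC was kept in 2 of 6, and was lost without ZNF655 replicate 3 or 4 or control 4a or 4b (adjusted p up to 0.139). NDUFA10 lost its call with no filter on low counts (adjusted p = 0.0592).

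The second-set fit called 30 genes after ZNF655 depletion, 29 of them down, against 29.5% of all genes. They included 3 falls among the 4 genes of complex II, 10 of 15 of complex V, 5 of 10 of complex IV, 4 of 8 of complex III and 7 of 37 of complex I. The largest falls were ATP5F1A (-0.61, adjusted p = 5.9e-09), SDHD (-0.59, SE 0.09, adjusted p = 2.1e-05), SDHC (-0.54, adjusted p = 7.4e-07) and NDUFB6 (-0.41, SE 0.09, adjusted p = 0.000931). The 1 rise was SDHA (0.17, adjusted p = 0.0471), whose named pseudogenes had counts equal to 76.7% of its own. The share of ribosomal protein genes was also lowest in these libraries (5.76% and 5.57%, against 6.54% to 7.18% in the controls), and the median log2 change of 83 such genes was -0.39; their part in the result was not tested. The labels do not say which controls belong to the ZNF655 libraries. Against the controls labelled for ZMYND8, 4 of 74 genes passed, against 9.11% of all genes: ATP5F1A and SDHC down, NDUFV2 and SDHA up. The median of the 74 genes was then -0.31, and NDUFA10 was at -0.22 and not called. INTS13, HDGF and ZNF655 depletion were set against the same 4 control libraries, so their changes are not independent of each other. ATP5F1A was at 598 and 617 CPM after INTS13 depletion and at 645 and 660 CPM after HDGF depletion, and SDHC at 46.2 and 46.8 CPM and at 60.3 and 53.3 CPM.

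ZMYND8 depletion called 0 of 74 genes, against 0.747% of all genes (unadjusted: 0, against 9.62%; Wald test 0, against 1.69%). The median log2 change was 0.03, against 0.01 for all genes. The fit of the 4 third-set libraries alone called 1 gene, against 9.42% of all genes: NDUFB2, an accessory subunit of complex I, at 119 and 102 CPM after depletion and 86.0 and 94.2 CPM in the controls (0.29, SE 0.08, adjusted p = 0.0191).

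In the first set most of the 74 genes lay on 1 side of the controls after TSPYL2 and ZEB1 depletion, and libraries of the same group differed too. After TSPYL2 depletion 73 of 74 were lower, with a median log2 change of -0.34, and after ZEB1 depletion 70 of 74 were higher, with a median of 0.46, against -0.01 and 0.01 for all genes tested. With 1 library left out, the median ran from -0.52 to -0.12 (without control 1a) for TSPYL2, and from -0.10 (without ZEB1 replicate 1, a change of direction) to 0.86 (without ZEB1 replicate 2) for ZEB1. Their shares of all counts were 1.23% and 0.992% in the TSPYL2 libraries, 1.96% and 1.26% in the ZEB1 libraries and 1.54%, 1.19% and 1.17% in the controls, so that each depletion had 1 library inside the range of the controls. The first-set libraries paired by the number in their descriptions, and differences within a number are therefore given beside the pooled ones. Within number 1 (1 library against 1 control, with no test) the median of the 74 genes was -0.54 for TSPYL2 and 0.52 for ZEB1; within number 2 (1 library against 2 controls) it was -0.32 and 0.13. The ribosomal protein genes moved alongside, with within-number medians of -0.58 and -0.34 for TSPYL2 and of 0.51 and 0.06 for ZEB1; their part in the result was not tested.

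TSPYL2 depletion lowered 1 of 74 genes in the fit of all libraries, against 2.22% of all genes (unadjusted: 19, all lower, against 16.8%). It was NDUFS1 (ENSG00000023228.14, chromosome 2, 206114817 to 206159509, minus strand), the largest iron-sulfur subunit of complex I, at 267 and 258 CPM, against 334, 306 and 311 CPM in the controls. The groups did not overlap (log2 fold change -0.27, SE 0.07, adjusted p = 0.0370), but the call was kept in 0 of 5 fits with 1 library left out (TSPYL2 1 or 2, or control 1a, 1b or 2), with adjusted p from 0.0532 to 0.395, and was lost with no filter on low counts (adjusted p = 0.443), a fit that called 10 of the 74, against 1.53% of all genes. With the replicate number of the descriptions as a block over all libraries 55 of 74 genes were called, all lower, against 18.3% of all genes, 25 of them in complex I, 3 in II, 6 in III, 10 in IV and 11 in V. The titles number control 1b differently, and with their numbers the same block called 8, against 3.55%. The largest falls with the numbers of the descriptions were NDUFA2 (-0.60), ATP5MC2 (-0.59), COX8A (-0.57) and ATP5PO (-0.57). In the fit of the 13 first-set libraries alone 0 of 74 passed, against 0.00529% of all genes, and with the block in that fit 0 passed as well, against 0.264% (unadjusted: 52 of 74, against 23.1%). With the first-set libraries numbered 1 left out, which leaves 1 TSPYL2 library assumed to vary like the others, 46 of 74 genes were called, all lower, against 17.1% of all genes.

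ZEB1 depletion raised 2 of 74 genes, against 3.77% of all genes (unadjusted: 49, all higher, against 22.1%). ATP5MC1 (ENSG00000159199.14, chromosome 17, 48892765 to 48895871, plus strand) was at 274 and 141 CPM after depletion and at 164, 124 and 114 CPM in the controls. NDUFV3 (ENSG00000160194.18, chromosome 21, 42879644 to 42913304, plus strand), the small flavoprotein subunit of complex I, was at 183 and 111 CPM, against 117.6, 104 and 99.4 CPM. For both genes ZEB1 library 1 stood above all controls and library 2 fell within their range. The log2 fold changes were 0.63 (SE 0.16, adjusted p = 0.0304) and 0.46 (SE 0.12, adjusted p = 0.0338). Both calls were lost without ZEB1 replicate 1 (adjusted p = 0.98), control 1b or control 2, and kept in 2 of 5 fits with 1 library left out. The number of the 74 genes called ran from 0 to 66 over those 5 fits: 66 without ZEB1 replicate 2, against 36.3% of all genes, and 58 without control 1a, against 21.2%. With no filter 50 were called, against 4.81%. With the replicate block over all libraries 41 were called (56 with the numbers of the titles, against 20.7%), all higher, against 13.6% of all genes with the numbers of the descriptions, the largest being NDUFB2 (0.74), UQCRQ (0.61), NDUFB7 (0.61) and UQCR10 (0.59). In the fit of first-set libraries alone 0 passed, against 0.148%, and 0 with the block, against 1.7% (unadjusted: 44 of 74, against 20%). Without the libraries numbered 1, 1 gene was called, NDUFB2, against 3.43% of all genes.

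ZNF608, ZNF609 and ZNF687 depletion called 0 of 74 genes each in the fit of all libraries. For ZNF608 the share of all genes was 2.76% (unadjusted: 2 of 74, against 14.4%), DESeq2's Wald test called 1, NDUFS1, against 4.82%, and the replicate block over all libraries called the same gene (-0.20, adjusted p = 0.0374), against 8.65%. For ZNF609 it was 0.571% (unadjusted: 1, against 9.81%; Wald test 0, against 1.67%), and for ZNF687 0.254% (unadjusted: 2, against 9.08%; Wald test 0, against 1.06%). In the fit of first-set libraries alone 0 were called for each, against 0.0529%, 0.00529% and 0.00529% of all genes. The median log2 change of the 74 genes was 0.11 for ZNF608, 0.05 for ZNF609 and 0.21 for ZNF687. With 1 library left out it ran from -0.06 (without ZNF608 replicate 1) to 0.32 (without control 1a) for ZNF608, from -0.06 (without control 2) to 0.26 (without control 1a) for ZNF609, and from -0.13 to 0.46 (without ZNF687 replicate 1 or 2) for ZNF687. Within numbers 1 and 2 the medians were -0.06 and 0.16 for ZNF608, -0.25 and 0.27 for ZNF609 and 0.10 and 0.11 for ZNF687, so for the first 2 the direction did not hold within both numbers. After ZNF609 depletion 70 of 74 genes were lower within number 1 and 67 of 74 higher within number 2. Without the libraries numbered 1, ZNF608 called 15 genes and ZNF609 37, all higher, against 9.12% and 14.2% of all genes, and ZNF687 called 0, against 2.18%. The 5 depletions of this set share their 3 controls, so their values are not independent of each other.

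**Figure D4:**
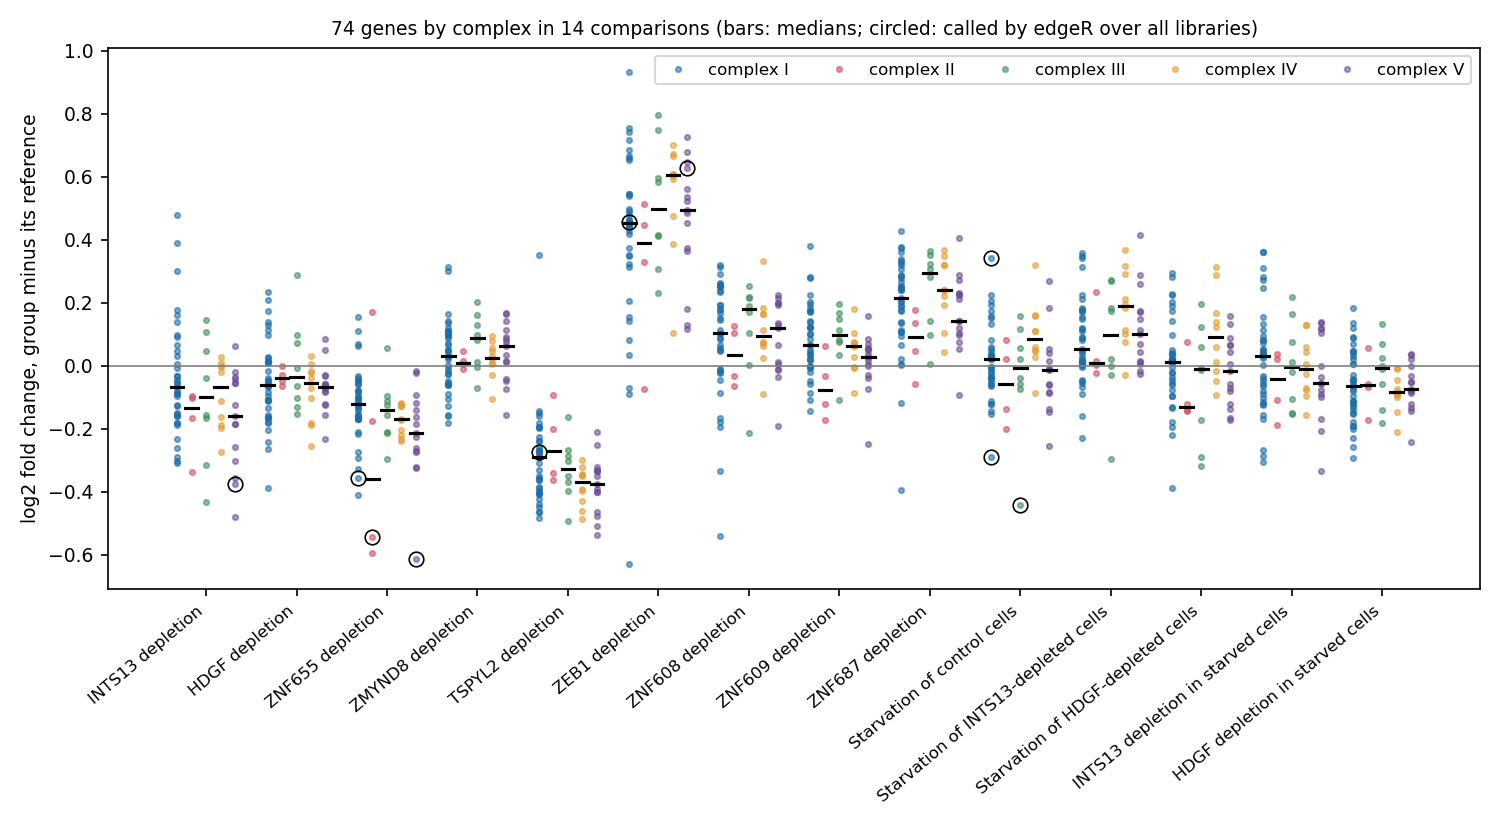
Log2 fold change of each of the 74 genes in 14 comparisons, coloured by complex, with the median of each complex as a bar and called genes circled. All complexes lie below 0 after TSPYL2 depletion and above 0 after ZEB1 depletion, and the other medians lie between -0.36 and 0.29.

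The widest gap between complex medians was that after ZNF655 depletion, -0.36 for complex II against -0.12 for complex I. After ZEB1 depletion the complex medians were 0.45, 0.39, 0.50, 0.61 and 0.49 for complexes I to V, and after TSPYL2 depletion -0.29, -0.27, -0.33, -0.37 and -0.37. On starvation of control cells they were 0.02, -0.06, -0.01, 0.09 and -0.01, and on starvation of INTS13-depleted cells 0.05, 0.01, 0.10, 0.19 and 0.10. Differences between complexes were not tested.

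**Figure D5:**
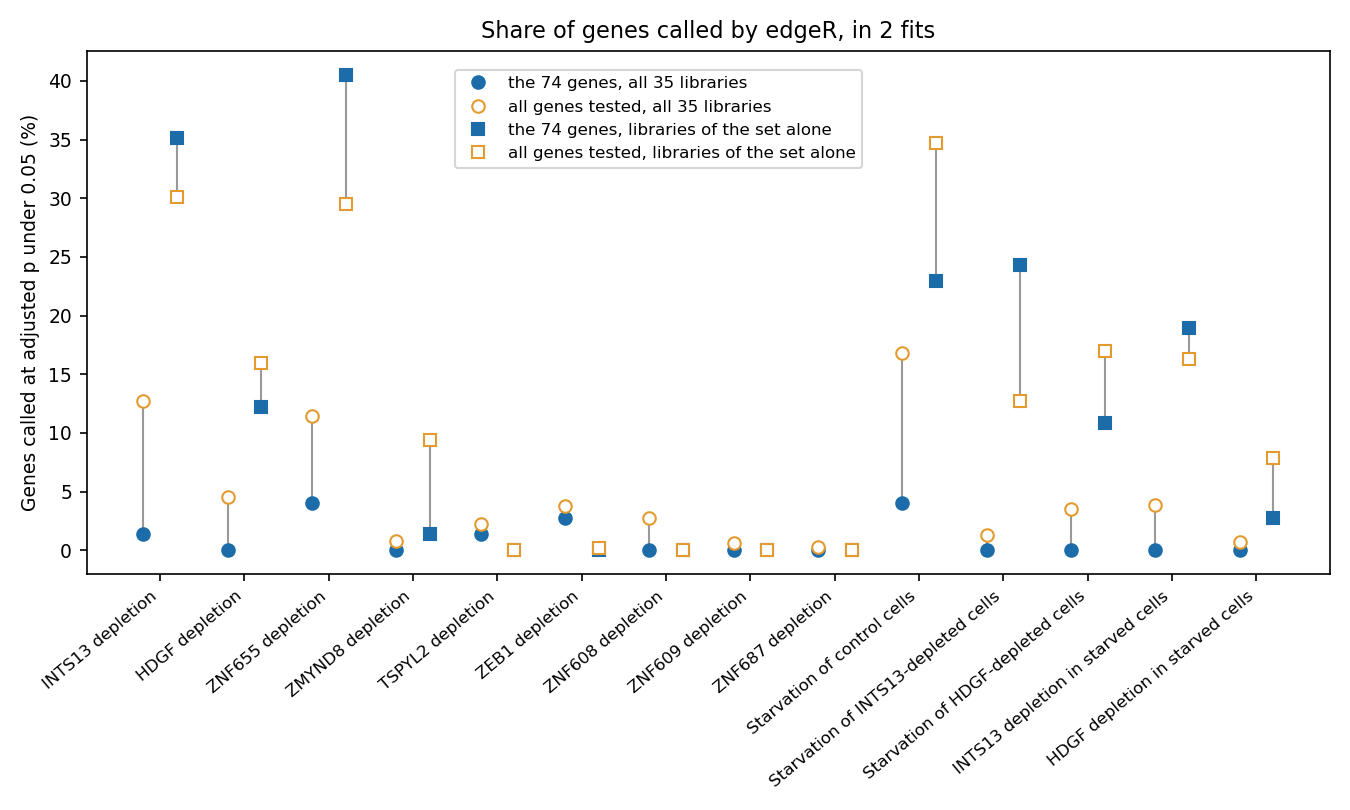
Share of genes called at an adjusted p under 0.05, in percent, for the 74 genes (filled) and all genes tested (open), in the fit of all 35 libraries (circles) and of the libraries of a set alone (squares). In the fit of all libraries the 74 genes lie below all genes in each comparison with a call, and in the fit of the set alone they lie above them for INTS13 and ZNF655 depletion, for starvation of INTS13-depleted cells and for INTS13 depletion in starved cells. The tests of a difference between depletion with and without glucose are not drawn.

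Of 51 assembly factors, which build the complexes without staying in them, 1 rose and 5 fell after INTS13 depletion (11.8% called, against 12.8% of all genes): TTC19, needed for complex III, went from 89.5 ± 4.01 CPM (SD, n = 4) to 56.0 ± 1.46 (SD, n = 2; log2 fold change -0.68, adjusted p = 0.000281), ACAD9, a complex I assembly factor, fell by 0.57 on the log2 scale (adjusted p = 6.4e-06), and NDUFAF6, another, rose by 0.57 (adjusted p = 0.0118). ACAD9 also fell in starved INTS13-depleted cells (-0.36, adjusted p = 0.0040). ATPAF1, a chaperone of the ATP synthase beta subunit, fell after HDGF depletion (-0.45, adjusted p = 0.000748), after HDGF depletion in starved cells (-0.35, adjusted p = 0.0338) and, with NDUFAF1 and COX19, after ZNF655 depletion (-0.37, adjusted p = 0.00239). On starvation of control cells 3 assembly factors rose and 2 fell (9.8% called, against 16.8% of all genes). SDHAF4, a complex II assembly factor, at 6.09 ± 0.708 CPM in the controls (SD, n = 4), rose by 0.85 on the log2 scale (SE 0.17, adjusted p = 0.00115), ECSIT rose by 0.41 (adjusted p = 0.00430) and SDHAF2 fell by 0.45 (adjusted p = 0.0342). SDHAF4 also rose when HDGF-depleted cells were starved (1.03, adjusted p = 0.0207).

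Of 7 subunits and carriers outside the 74 that passed the filter, NDUFA4L2, a paralog of NDUFA4 known to be induced by low oxygen, was the one that moved most often. It rose on starvation of control cells, from 0.570 ± 0.0955 to 1.36 ± 0.259 CPM (SD, n = 4 each; log2 fold change 1.25, adjusted p = 5.7e-05), on starvation of HDGF-depleted cells (0.93, adjusted p = 0.0474) and after INTS13 depletion (0.91, adjusted p = 0.0102), and fell after ZMYND8 depletion (-1.51, adjusted p = 0.0338). Its level stayed at or under 2.06 CPM in all 35 libraries.

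Among 12 regulators, YY1 (-0.28, adjusted p = 0.0333) and NRF1 (-0.26, adjusted p = 0.0455) fell after INTS13 depletion, where 12.8% of all genes were called. Whether these falls bear on the genes of the complexes was not tested. NRF1 was at 26.9 ± 1.22 CPM (SD, n = 2), against 32.2 ± 1.56 (SD, n = 4), and YY1 at 205.6 ± 1.65 against 250.1 ± 5.49. Starvation of control cells, where 16.8% of all genes were called, lowered YY1 (-0.21, adjusted p = 0.0443) and TFB2M, a mitochondrial transcription factor (-0.43, adjusted p = 0.0144). TFB1M, a mitochondrial ribosomal RNA methyltransferase, fell after TSPYL2 (-0.30, adjusted p = 0.0463) and ZNF608 depletion (-0.36, adjusted p = 0.00890). Of all genes 2.22% and 2.76% were called there, and 0.00529% and 0.0529% with the first set fitted alone. GABPA, ESRRA, TFAM and the coactivators PPARGC1A, PPARGC1B and PPRC1 were called in none of the 14 comparisons of 2 groups; over the 9 controls they were at 87.1, 47.6, 193, 2.52, 46.7 and 95.2 CPM.

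Of the 18 genes of the citric acid cycle and of pyruvate dehydrogenase on the list, a few passed the test in some comparisons, and examples follow. IDH2, a mitochondrial isocitrate dehydrogenase, rose on starvation of control cells from 52.4 ± 4.74 to 64.3 ± 1.79 CPM (SD, n = 4 each; 0.30, adjusted p = 0.0356), while PDHX fell (-0.24, adjusted p = 0.00548). PDHA1, the E1 alpha subunit of pyruvate dehydrogenase, fell after ZNF655 (-0.42, adjusted p = 0.00056), TSPYL2 (-0.36, adjusted p = 0.0181) and ZNF609 depletion (-0.41, adjusted p = 0.0118). FH and DLST fell after INTS13 depletion (-0.36 and -0.27). Of 77 mitochondrial ribosomal protein genes tested, 7 fell after INTS13 depletion (9.09%, against 12.8% of all genes) and 4 after ZNF655 depletion (5.19%, against 11.5%), and 5 rose after ZEB1 depletion (6.49%, against 3.77%). The largest were MRPL12 (-0.63, adjusted p = 0.0365), MRPS17 (-0.51, adjusted p = 0.0148) and MRPS11 (0.77, adjusted p = 0.0437) in that order. The percentages of all genes called, given above for each comparison, are the base against which these counts stand. The calls after TSPYL2, ZNF609 and ZEB1 depletion are from the first set. Fitted alone, that set called 0.00529%, 0.00529% and 0.148% of all genes in these comparisons, and the genes of these lists are not given for that fit.

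The spread of the 74 genes over groups was close to that of other genes when all sets were taken, and lower within the second set. Between the highest and the lowest of the 15 group means, the median gene of the 74 ranged over 1.12 on the log2 scale, against 1.04 for all genes tested. Over the 7 groups of the second set it ranged over 0.33, against 0.59. The widest in each complex were NDUFS4 (1.62), SDHD (1.60), UQCRH (1.53), COX7A2 (1.70) and ATP5PD (1.41). ZEB1-depleted cells, of the first set, were the highest group for each of these 5. The lowest was of the second set: HDGF-depleted cells for NDUFS4 and COX7A2, ZNF655-depleted for SDHD and ATP5PD, and INTS13-depleted for UQCRH. The control means of the 2 sets differed the same way. NDUFS4 was at 45.9 CPM in first-set and 24.0 in second-set controls, and SDHD at 115 and 75.1. UQCRH was at 462 and 290, COX7A2 at 189 and 99.9, and ATP5PD at 179 and 113. In these ranges set and depletion cannot be told apart. NDUFA10 ranged over 0.44, the least of the 74.

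Core subunits fixed for description are given here by their level in the controls. NDUFS1, the largest subunit of complex I, was at 269 ± 37.2 CPM over the 9 controls and NDUFB8 at 41.6 ± 11.6. NDUFA4, counted here with complex I by its symbol although the protein is known to sit in complex IV, was at 152 ± 64.0 CPM. SDHB was at 152 ± 33.1, UQCRC1, a core protein of complex III, at 315 ± 18.9, COX4I1 at 289 ± 55.4 and COX5B at 155 ± 43.7 CPM. Moving NDUFA4 to complex IV left both complexes' medians within the spread between replicates in all comparisons.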

How the data were processed

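Total RNA of HEK293T cells was depleted of ribosomal RNA and sequenced from stranded libraries, per the labels' protocols. The authors deposited raw read counts per gene, taken before duplicate removal according to the name of the deposited table; reads had been processed with FastQC, cutadapt and STAR on hg38, per the submitters' processing notes. The counter, annotation and strand setting are not given in the sources used here. Gene identifiers were matched to GENCODE (96.4% of 60665, all 74 genes).

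Counts were filtered (filterByExpr by group, 19275 genes left), scaled by TMM and fitted with edgeR's quasi-likelihood test (edgeR 4.0.16, R 4.3.3; 15 group means over 35 libraries, no block; tested on simulated data), with two-sided tests and Benjamini-Hochberg adjusted p under 0.05 over all genes. CPM are TMM-scaled. Alternatives were DESeq2 1.42.0 (size factors, Wald test), no filter, each set fitted alone, a replicate block, and leaving out each library; leaving out the first-set libraries numbered 1 was added after seeing the data. The numbers pair the first set (15 of 15 pairs of groups correlated above 0.1 in their deviations, median r 0.716, over 12795 genes), but not the second (5 of 21) or the third (0 of 1). The titles give the first-set controls as 1a, 1b and 2, whereas the descriptions give 1, 2a and 2b; the descriptions were followed for the block.

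The members and lists were chosen with earlier results of these data known. Named genes were all called genes of a comparison up to 6, otherwise the 4 largest rises and 4 largest falls; the widest, highest and lowest gene of each complex; 13 fixed subunits; 7 regulators; and at most 3 called genes of each other list. ATP5MC2, NDUFB2 and genes of fits of a single set were named by applying this rule to those fits, after their values were seen. Other columns of the table hold no sample of another series. No replicates agreed within sampling noise. Starved ZMYND8 libraries were not analysed here. Not every called gene of the other lists is reported here.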

Additional observations from a re-analysis of the deposited data

Results flagged for a closer look

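In the groups of 4 libraries, 62 values were examined for a library far from the other 3, of which chance flags about 1 in 20. The gap to the nearest library, divided by the range of the group, was large for 5. COX7A2 was high in control 4a, at 113 CPM against 96.0, 94.4 and 96.7 CPM (gap 0.872 of the range). In starved controls COX8A was low in 4a, at 174 CPM against 197.3, 195 and 197.2 CPM (0.920), NDUFA7 low in 3a, at 0.864 CPM against 1.31, 1.27 and 1.26 CPM (0.881), NDUFS1 low in 4b, at 233 CPM against 244.5, 244.5 and 243 CPM (0.878), and NDUFV3 high in 4b, at 124 CPM against 118.0, 117 and 118.1 CPM (0.848).

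The effect of INTS13 depletion differed between starved and unstarved cells for UQCRH and NDUFB3 in the edgeR fit of second-set libraries alone, with log2 differences of 0.336 (adjusted p = 0.0189) and 0.352 (adjusted p = 0.0408). In the fit of all libraries neither passed. With the first-set libraries numbered 1 left out UQCRH alone was called.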

How the results depend on the processing

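The share of all genes called in the same fit stands in brackets after each count of the 74 genes. No called gene changed direction under any alternative run. With the libraries of a set fitted alone, 26 (30.1%) were called for INTS13, 9 (16%) for HDGF, 30 (29.5%) for ZNF655 and 1 (9.42%) for ZMYND8 depletion, 17 (34.7%), 18 (12.7%) and 8 (17%) for starvation of control, INTS13-depleted and HDGF-depleted cells, 14 (16.3%) and 2 (7.82%) for INTS13 and HDGF depletion in starved cells, 2 (1.64%) for the difference between INTS13 depletion with and without glucose, and 0 (0.00529%) for TSPYL2 and 0 (0.148%) for ZEB1. With the first-set libraries numbered 1 left out they were, in the same order, 27 (29.7%), 9 (16.2%), 30 (29.2%) and 1 (6.57%), then 17 (33.7%), 16 (13%) and 8 (17.2%), then 15 (16.6%) and 4 (8.84%), then 1 (2.03%), with 46 (17.1%) for TSPYL2, 1 (3.43%) for ZEB1, 15 (9.12%) for ZNF608 and 37 (14.2%) for ZNF609. The replicate block over all libraries, with the numbers of the descriptions, called 55 (18.3%) for TSPYL2, 41 (13.6%) for ZEB1, 1 (8.65%) for ZNF608, 11 (22.4%) for INTS13 and 8 (20.9%) for ZNF655 depletion, 5 (26.5%), 1 (5.58%) and 1 (9.37%) for starvation of control, INTS13-depleted and HDGF-depleted cells and 2 (9.42%) for INTS13 depletion in starved cells. The counts of the other comparisons stayed at 0 under this block. The block with the numbers of the titles called 8 (3.55%) for TSPYL2 and 56 (20.7%) for ZEB1, and the block on the first set alone 0 (0.264%) and 0 (1.7%). Of the block's counts only those of the first set rest on numbers that pair the samples. DESeq2's Wald test called 2 (14.4%) for INTS13, 7 (4.72%) for TSPYL2, 9 (6.76%) for ZEB1 and 1 (4.82%) for ZNF608 depletion and 1 (2.79%) for starvation of INTS13-depleted cells. With no filter 3 (5.18%), 10 (1.53%) and 50 (4.81%) were called for INTS13, TSPYL2 and ZEB1 depletion. The cause of these differences was not tested.

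Leaving out 1 library at a time gave 0 to 1 calls for INTS13, 2 to 3 for ZNF655, 0 to 3 for TSPYL2 and 0 to 66 for ZEB1 depletion and 2 to 3 for starvation of control cells, and 0 in every such fit of the other comparisons. The median log2 change of the 74 genes changed sign in such fits for ZEB1, ZNF608, ZNF609 and ZNF687 depletion, as given above. It also did for ZMYND8 depletion, for starvation of control and of HDGF-depleted cells, for INTS13 depletion in starved cells and for the difference between HDGF depletion with and without glucose, where it stayed between -0.07 and 0.08. Leaving those fits aside, 92 of 139 results stayed within 1.5 times the reported count or within the spread between replicates, and 47 did not. A lone library left in a group was assumed to vary like the other groups. NDUFA7 had the fewest counts of the 74 genes, with under 2 CPM in every library.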
